A study of Mus musculus with 2 samples.

Results

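The miRNAs described here are miR-143, miR-145a, miR-199a, miR-199b and miR-214, which mark stellate and other mesenchymal cells, in whole liver. They were taken by name from the count files, either arm of each hairpin counting as a member. Of the 10 arms these 5 miRNAs could give, 7 were listed, among 197 named miRNA arms in all. They were mmu-miR-143-3p, mmu-miR-143-5p, mmu-miR-145a-5p, mmu-miR-145a-3p, mmu-miR-199a-5p, mmu-miR-214-3p and mmu-miR-214-5p (mmu stands for mouse and is left out from here on). Replicate 1 listed 6 of them and replicate 2 all 7. The samples were livers of wild-type C57BL/6 mice of 2 to 3 months with free access to food, in 1 group of 2 replicate libraries, with no treated or mutant group. RNA was extracted from snap-frozen tissue with Trizol, and small RNA libraries were built from 1 µg and sequenced on an Illumina instrument. Whether the replicates were different animals is not in the labels, so a difference between these libraries may be technical. The p-values set such a difference against counting error alone.

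As background, miRNAs are short RNAs cut from hairpins, with one product from each side (the 5p and the 3p arm), and they repress mRNAs that pair with their seed, bases 2 to 8. miR-143 and miR-145 are processed from a shared transcript and are known for maintaining the contractile state of smooth muscle. miR-199a and miR-214 are processed from the non-coding RNA Dnm3os, and both are known to be raised in fibrotic liver, where activated stellate cells are their main reported source. In unaltered liver these cells (quiescent stellate cells, portal fibroblasts and vessel wall) are a minority beside hepatocytes. In bulk tissue fewer cells of a type and less RNA per cell cannot be told apart.

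The mature sequences of the miR-199 and miR-214 arms found in the RefSeq sequence table are shown with their seeds in capitals. The seed is the same in the 3p arms of miR-199a and miR-199b and differs among the other arms shown. These sequences are credited to RefSeq (GRCm38.p6) and read 5′ to 3′:
miR-199a-5p: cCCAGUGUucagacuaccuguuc
miR-199a-3p: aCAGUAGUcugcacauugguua
miR-199b-3p: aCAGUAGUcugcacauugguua
miR-214-5p: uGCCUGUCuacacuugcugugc
miR-214-3p: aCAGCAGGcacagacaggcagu
Of the 7 listed arms, 3 were found in the RefSeq sequence table (miR-199a-5p, miR-214-5p and miR-214-3p). No other miRNA listed in either library carried the seed of any of the 7 listed arms. In the RefSeq table the seed of miR-214-3p was shared by miR-761 and that of miR-143-5p by miR-1930-3p, neither of them listed. That table lacked miR-199b-5p and some of the listed arms, so further miRNAs that share a seed may be missing from it.

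The miR-214 hairpin and the miR-199a-2 hairpin lay on the plus strand of chromosome 1, in an exon of Dnm3os, which runs antisense to the dynamin gene Dnm3. They are shown with both mature arms in capitals, since the results turn on which arm was listed. Mir199a-2 occupied chr1:162217814-162217923 and Mir214 chr1:162223368-162223477 (GRCm38), with 5444 bases between them:
Mir199a-2: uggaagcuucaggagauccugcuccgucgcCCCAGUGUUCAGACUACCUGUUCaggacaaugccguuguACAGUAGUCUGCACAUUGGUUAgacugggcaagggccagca
Mir214: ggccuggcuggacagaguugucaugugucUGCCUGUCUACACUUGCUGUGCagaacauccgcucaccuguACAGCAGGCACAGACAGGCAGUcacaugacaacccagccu

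Mir145a (chr18:61647825-61647894) and Mir143 (chr18:61649196-61649258) lay on the minus strand, 1301 bases apart. The deposited annotation calls both intergenic, a label it also gives Mir199a-2 and Mir214. RefSeq places Mir145a and Mir143 within the span of the long non-coding RNA Carmn, for which it gives Mir143hg as another name.

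The levels of the members spanned more than 2 orders of magnitude. Shares are percentages of the counts of named miRNAs, which were 306351 in replicate 1 and 538023 in replicate 2, with exact Clopper-Pearson 95% intervals that cover counting error only. miR-145a-5p, known to repress Klf4 in smooth muscle, had 1060 counts in replicate 1 and 702 in replicate 2. These were 0.346% of named counts (0.326 to 0.367) and 0.130% (0.121 to 0.140), which placed it at rank 33 and rank 41. miR-143-3p, the partner from the same transcript, had 628 and 1073 counts, or 0.205% (0.189 to 0.222) and 0.199% (0.188 to 0.212), at rank 38 and rank 33. The intervals of miR-145a-5p did not overlap between the libraries, and those of miR-143-3p did.

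All other arms were below 0.01% of counts. miR-199a-5p, the arm best known from fibrotic tissue, was listed in replicate 2 only, with 48 counts or 0.00892% (0.00658 to 0.0118). miR-143-5p, the minor arm of its hairpin, had 7 counts in replicate 1 and 23 in replicate 2. miR-214-3p, cut from Dnm3os as miR-199a-5p is, had 8 counts in replicate 1 and 16 in replicate 2, and miR-214-5p had 7 and 15. miR-145a-3p had 2 counts in each library. In mean share the order over both libraries was miR-145a-5p (0.238% ± 0.152, SD, n = 2) and miR-143-3p (0.202% ± 0.00393), followed by miR-143-5p (0.00328% ± 0.00141), miR-214-3p (0.00279% ± 0.000256), miR-214-5p (0.00254% ± 0.000356) and miR-145a-3p (0.000512% ± 0.000199). The first pair did not differ beyond its spread, nor did miR-143-5p and the miR-214 arms among themselves.

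**Figure D1:**
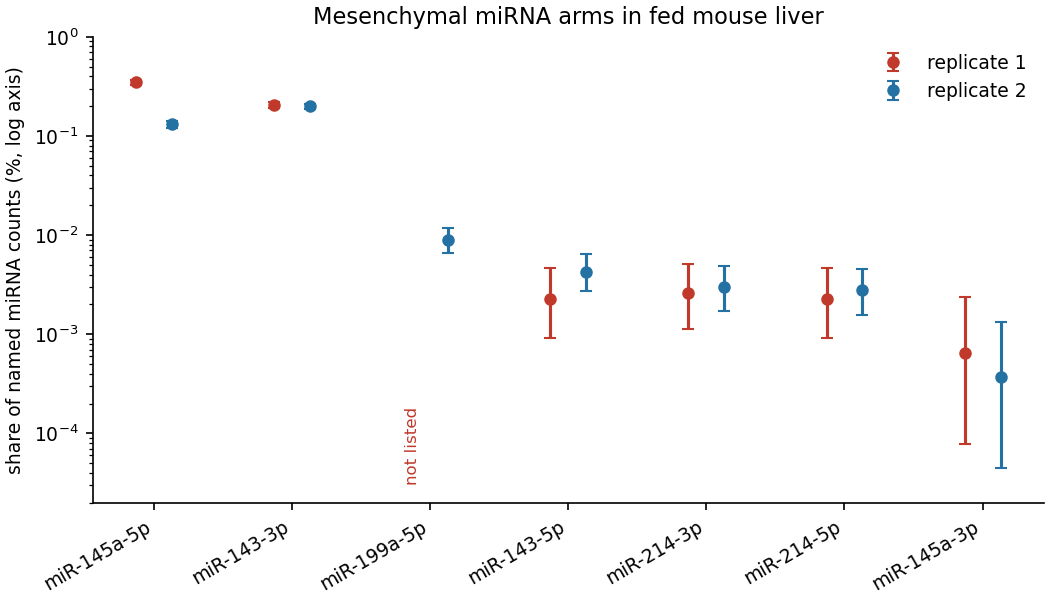
Share of named miRNA counts (percent, log axis) of each listed arm in replicate 1 (red) and replicate 2 (blue), with 95% counting intervals. miR-145a-5p at 0.346% and 0.130% and miR-143-3p at 0.205% and 0.199% stand far above the other arms, and miR-199a-5p has a value in replicate 2 only.

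Summed over members, the mesenchymal arms came to 1712 counts (0.559%, 0.533 to 0.586) in replicate 1 and to 1879 counts (0.349%, 0.334 to 0.365) in replicate 2. The arms of miR-143 and miR-145a made up 99.1% of these in replicate 1 and 95.8% in replicate 2. Within the sum, miR-145a-5p was 61.9% (59.6 to 64.2) in replicate 1 and 37.4% (35.2 to 39.6) in replicate 2, and miR-143-3p was 36.7% (34.4 to 39.0) and 57.1% (54.8 to 59.4). Without miR-145a-5p, a choice made after its values were seen, the sum was 0.213% (0.197 to 0.230) in replicate 1 and 0.219% (0.206 to 0.232) in replicate 2. The arms of miR-199a and miR-214 came to 15 counts (0.00490%) in replicate 1 and to 79 (0.0147%) in replicate 2, where 48 were miR-199a-5p.

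Set beside the listed markers of other liver cell types, the mesenchymal sum lay well below the hepatocyte sum and above the endothelial and biliary sums. The hepatocyte markers (miR-122, miR-192, miR-194 and miR-148a) took up 4.83% of replicate 1 and 5.16% of replicate 2, or 8.64 and 14.8 times the mesenchymal sum, with miR-122-5p first and miR-192-5p second. The immune markers took up 0.341% of replicate 1 and 0.212% of replicate 2, all but a few counts of it in miR-150-5p with miR-146a-5p, so the mesenchymal sum was 1.64 times theirs in both libraries. The mesenchymal sum was 12.6 and 9.84 times that of the endothelial marker miR-126a (0.0444% and 0.0355%) and 27.2 and 11.3 times that of the biliary markers (0.0206% and 0.0309%). Striated muscle markers were not listed in either library, and 14 counts of miR-486b-5p in replicate 2 were the one erythroid entry. Of the immune markers, miR-142a, miR-155 and miR-223 were not listed in either library. Nor were miR-200a, miR-200c, miR-141 and miR-429 of the biliary markers, which left miR-200b alone. The sums and their ratios therefore cover listed arms only, and the level of an unlisted arm is not known. These are sums over different numbers of miRNAs and do not measure cell numbers.

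**Figure D2:**
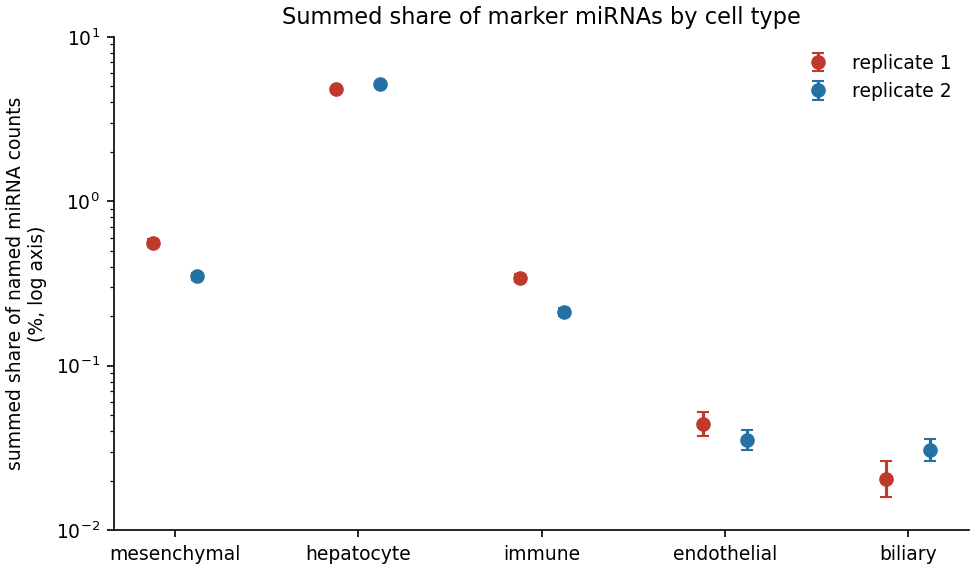
Summed share of named miRNA counts (percent, log axis) of the listed marker miRNAs of 5 cell types in replicate 1 (red) and replicate 2 (blue). The 95% counting intervals are narrower than the points for the first 3 types. The mesenchymal sum (0.559% and 0.349%) lies between the hepatocyte sum (4.83% and 5.16%) and the immune sum (0.341% and 0.212%).

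The libraries were then compared arm by arm, to see which members differed by more than counting error. At TMM-scaled library sizes miR-145a-5p was higher in replicate 1, at 2.37 times its level in replicate 2 (log2 ratio 1.24, 95% interval 1.10 to 1.38; adjusted p = 6.25e-71 in the 2-sided exact binomial test). It was the highest ratio to replicate 2 among the 87 tested miRNAs with at least 100 counts, and rank 2 of these in absolute size. The test compares these 2 libraries, not conditions, and takes counting error alone as its spread. It called 44.3% of all 131 tested miRNAs, 22.9% as higher and 21.4% as lower in replicate 1, and edgeR's common biological coefficient of variation between the libraries was 0.229. Of the 5 members tested, 1 was called higher and 4 did not pass, and the median log2 ratio of the 5 was -0.31, against 0.03 over all tested miRNAs.

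miR-143-3p, though counted about as deeply, had a log2 ratio of -0.12 (-0.27 to 0.02; adjusted p = 0.185, same exact binomial test) and did not pass. Its sign depended on the scaling, as library totals in place of TMM gave 0.04, while those totals left miR-145a-5p at 1.41. The switch to totals moved the median of all tested miRNAs from 0.03 to 0.19, and the calls from 30 higher and 28 lower to 45 higher and 19 lower. miR-143-5p (-0.999, interval -2.53 to 0.20), miR-214-3p (-0.31, -1.78 to 0.96) and miR-214-5p (-0.40, -1.99 to 0.93) were too thinly counted for a difference to be told from none. miR-145a-3p, with 4 counts in all, was below the minimum of 10 and was not tested.

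Of the immune markers, 2 arms were tested and both were called higher in replicate 1, as were 22.9% of all 131 tested miRNAs. They were miR-150-5p (log2 ratio 0.50) and miR-146a-5p (0.82), against 1.24 for miR-145a-5p and -0.12 for miR-143-3p. The summed immune share, without TMM scaling, was 1.61 times as high in replicate 1 as in replicate 2, against 1.60 times for the mesenchymal sum. Without miR-145a-5p the mesenchymal sum was 0.213% in replicate 1 and 0.219% in replicate 2. Neither endothelial arm passed the test, and the one tested biliary arm, miR-200b-3p, was called lower in replicate 1 (log2 ratio -0.79). Of 7 hepatocyte arms 1 was called higher in replicate 1 and 3 lower, while 3 did not pass, with miR-122-5p and miR-148a-3p among the lower ones. Over all 131 tested miRNAs 21.4% were called lower in replicate 1. The part of these other cell types in the difference of miR-145a-5p was not tested.

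**Figure D3:**
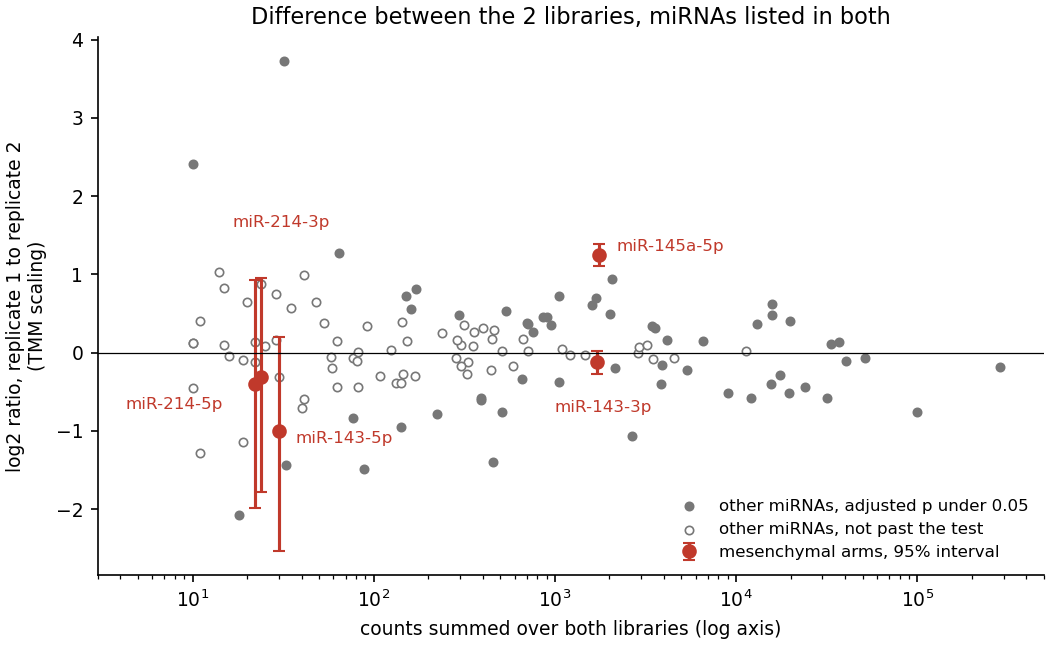
Log2 ratio of replicate 1 to replicate 2 (TMM scaling) against the counts summed over both libraries (log axis) for the 131 tested miRNAs. The 5 mesenchymal arms are red with 95% intervals, and filled grey points are other miRNAs past the test. miR-145a-5p stands at 1.24 and miR-143-3p, at a like depth, at -0.12.

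miR-145a and miR-143 share a primary transcript, and the ratio of 2 arms within a library does not depend on library scaling. miR-145a-5p was 1.69 times miR-143-3p in replicate 1 (1.53 to 1.87) and 0.654 times in replicate 2 (0.594 to 0.720). The partner in excess thus changed between the libraries. The ratio differed 2.58-fold (Wald 95% interval 2.25 to 2.96; adjusted p = 1.18e-41, 2-sided Fisher's exact test over 17 neighbouring pairs no more than 10 kb apart). With the arms of each hairpin summed the difference was 2.60-fold. Such differences were called in 41.2% of the 17 pairs, with a median size of 1.21-fold over all of them, and miR-143 with miR-145a ranked 2 in size. The pair ranked first, miR-100-5p with let-7a-5p at 2.64-fold, includes a miRNA encoded at several loci, for which the split of reads is uncertain. For the Dnm3os pair a ratio was available in replicate 2 only, where miR-214-3p was 0.333 times miR-199a-5p (16 against 48 counts, 0.177 to 0.597). With both arms of Mir214 summed it was 0.646 times (31 against 48 counts, 0.397 to 1.04), an interval that includes 1.

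**Figure D4:**
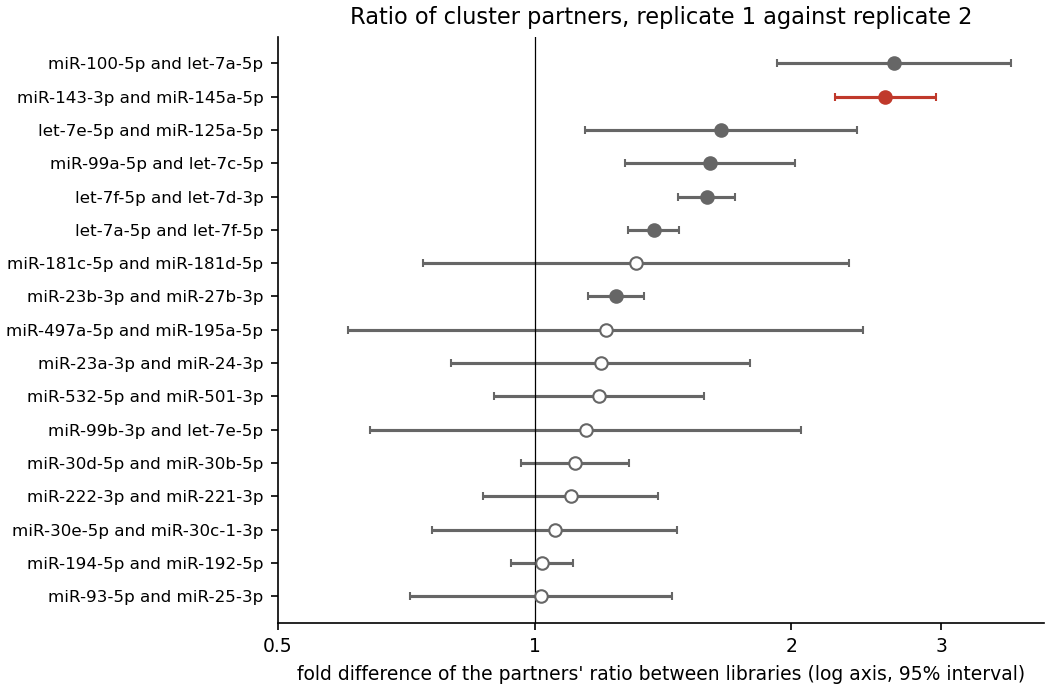
Fold difference between libraries in the ratio of neighbouring miRNAs (log axis, with the larger ratio over the smaller, 95% Wald intervals) for 17 pairs, filled where the adjusted p is under 0.05. The pair of miR-143-3p and miR-145a-5p (red) differs 2.58-fold, against a median of 1.21-fold.

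Arm use set the hairpins apart. Mir145a was read almost wholly from its 5p arm, which took 99.8% of 1062 counts in replicate 1 (99.3 to 99.98) and 99.7% of 704 in replicate 2 (98.98 to 99.97). Mir143 was read from its 3p arm, with 98.9% of 635 counts (97.7 to 99.6) and 97.9% of 1096 (96.9 to 98.7). Partners cut from a shared transcript thus kept opposite arms. Neither arm share differed between the libraries past the test (adjusted p = 1.00 for Mir145a and 0.616 for Mir143, 2-sided Fisher's exact test), which called 8.33% of 48 hairpins.

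Mir214 gave nearly equal counts from its arms, with 7 on 5p and 8 on 3p in replicate 1, and 15 on 5p and 16 on 3p in replicate 2. Its 5p share was 46.7% (21.3 to 73.4) and 48.4% (30.2 to 66.9), or 47.5% ± 1.22 (SD, n = 2). Of the 51 hairpins with both arms listed in both libraries, it was the most evenly divided, and 36 gave over 90% of their counts to one arm. With the share of the larger arm taken in each library and then averaged, Mir674 was the one other hairpin under 60%. With 15 counts in replicate 1, Mir214 was below the minimum of 20 for the test between libraries. At this depth the intervals are wide.

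**Figure D5:**
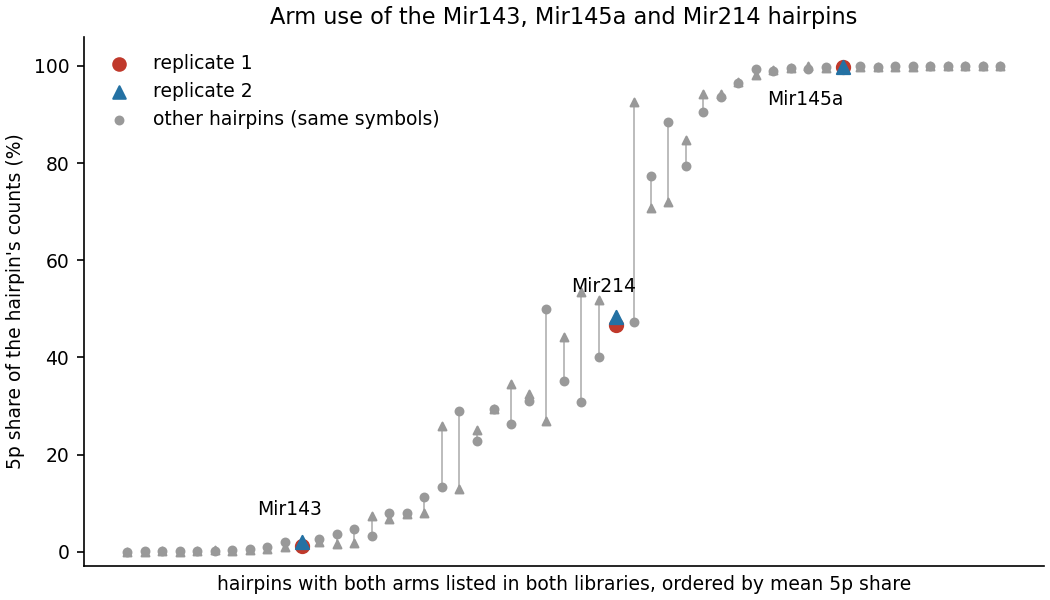
Share of each hairpin's counts on the 5p arm (percent) for the 51 hairpins with both arms listed in both libraries, ordered by their mean, with circles for replicate 1 and triangles for replicate 2. Mir143 lies near 0 (1.10% and 2.10%), Mir145a near 100 (99.8% and 99.7%) and Mir214 in the middle (46.7% and 48.4%).

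The miR-199 entries were the least complete. The 5p arm of Mir199a-2 was listed in replicate 2 with no 3p arm beside it, and neither Mir199a-1 nor Mir199b was listed in either library. GENCODE M21 places Mir199a-1 within Dnm2 (chr9:21496495-21496564) and Mir199b within Dnm1 (chr2:32318460-32318569), each antisense to that dynamin gene. At its share in replicate 2, miR-199a-5p would have had 27.3 counts in replicate 1. Of 97 arms with at least 48 counts in replicate 2, 94 were listed in replicate 1, and miR-199a-5p was 1 of the 3 that were not. The others were miR-365-3p and miR-425-5p. The files hold called loci alone, and miR-16-5p, with 1321 counts in replicate 1, was not listed in replicate 2. An arm that is not listed therefore has no upper limit on its level.

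The mature sequence of miR-199a-3p is encoded identically at 3 hairpins in RefSeq, Mir199a-1, Mir199a-2 and Mir199b, and that of miR-199a-5p at 2. The RefSeq sequence table lacked some listed arms, among them those of miR-143 and miR-145a. Of the mature sequences it held with 1 locus, 154 of 1620 were listed in either library. Of those with 2 loci 16 of 45 were listed, and of those with 3 or more 0 of 9. The part of shared loci in the missing entries was not tested. The 48 counts of miR-199a-5p, assigned to Mir199a-2, could include reads from Mir199a-1.

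The sequences listed for miR-199a-5p and miR-214-3p, but not for miR-214-5p, carried bases at their 3′ ends that differ from the RefSeq hairpin. They are set beside the RefSeq hairpin sequence of the same span, with the differing bases in capitals:
miR-199a-5p, replicate 2: cccaguguucagacuaccuguucU
miR-199a-5p, RefSeq: cccaguguucagacuaccuguucA
miR-214-3p, replicate 1: acagcaggcacagacaggcaguAa
miR-214-3p, RefSeq, replicate 1 span: acagcaggcacagacaggcaguCa
miR-214-3p, replicate 2: acagcaggcacagacaggcaguAU
miR-214-3p, RefSeq, replicate 2 span: acagcaggcacagacaggcaguCA
Counting from 1 at the 5′ end, with the reference base first, the differences were A24U in miR-199a-5p, C23A in miR-214-3p of replicate 1, and C23A with A24U in miR-214-3p of replicate 2. All lay beyond the last base of the RefSeq mature form, which has 23 bases for miR-199a-5p and 22 for miR-214-3p. miR-214-5p was listed as its RefSeq sequence in both libraries, and all 3 arms kept the RefSeq 5′ end and seed. Over all arms matched to RefSeq, 12 of 133 in replicate 1 (9.02%) and 18 of 146 in replicate 2 (12.3%) had any base unlike the reference, in 11 and 17 of them only in the last 2 positions. The seed equalled that of RefSeq in 123 and 132.

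Ends of the chromosome 18 members were compared between the libraries. miR-145a-5p had 23 bases and miR-143-3p 20 bases in both libraries, at the same positions (chr18:61647866-61647888 and chr18:61649200-61649219). miR-143-5p kept its 5′ end and was listed with 23 bases in replicate 1 and 24 in replicate 2. miR-145a-3p, at 2 counts each, began 1 base later in replicate 2 (20 bases in replicate 1, 19 in replicate 2), which shifts its seed by 1 base. Of the 6 members listed in both libraries, 5 had the same 5′ end and 3 the same sequence in both. Over all 152 arms listed at one locus in both libraries, 95.4% and 79.6% did.

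The miRNAs most alike in level were found by the distance between log2 shares over the 2 libraries, which describes level alone. Nearest to miR-145a-5p were miR-320-3p (855 counts in replicate 1 and 823 in replicate 2, distance 0.39), let-7d-5p (1134 and 922, distance 0.41) and let-7i-5p (795 and 814, distance 0.47). Nearest to miR-143-3p was miR-107-3p (563 and 898, distance 0.30), with miR-21a-5p (distance 0.45) and let-7i-5p (distance 0.52) next. The miR-214 arms lay close to each other (distance 0.21) and to miR-22-5p (8 and 14 counts). They were followed by miR-674-5p for miR-214-3p (distance 0.34) and by miR-29c-3p for miR-214-5p (distance 0.32). Nearest to miR-143-5p were miR-340-3p, miR-671-5p and miR-214-3p, and nearest to miR-145a-3p were miR-23b-5p, miR-676-5p and miR-331-5p, at counts too low for the order to be read.

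Other miRNAs reported to act in stellate cells were summed in 2 lists, of 13 and 7 miRNAs against the 5 of the mesenchymal list, so the sums do not compare single arms. Both lists held miRNAs with no arm listed in either library, so the sums and tests cover listed arms only. The 13 reported to restrain fibrosis, among them miR-29 and miR-30 members and also miR-146a, miR-150 and miR-194 of the marker lists above, took up 9.23% of replicate 1 and 8.45% of replicate 2, led by miR-30a-5p and miR-378a-3p, both of which hepatocytes also express. Of their 13 tested arms 5 were called higher in replicate 1 and 1 lower, while 7 did not pass, with a median log2 ratio of 0.14. The 7 reported to promote fibrosis took up 2.75% of replicate 1 and 3.00% of replicate 2, led by miR-27b-3p and miR-125b-5p. Of 7 tested arms 1 was called higher, 3 lower and 3 did not pass, with a median of -0.20. Of all 131 tested miRNAs 22.9% were called higher and 21.4% lower in replicate 1, and their median was 0.03.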

How the data were processed

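The deposited files hold raw read counts (whole numbers) for each miRNA locus that was called, per the file headers. Reads went through cutadapt 1.5, FastQC 0.11.2 and Bowtie 1.0.1 on GRCm38 (mm10), per the submitters' processing notes. The caller of loci was not given in the sources used here. Loci with no miRNA name (5.02% and 2.46% of listed counts) stayed out of totals. Positions were raised by 1. Where a name had several loci, the highest count was used.

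Libraries were compared by a 2-sided exact binomial test at TMM effective sizes (edgeR 4.0.16, scipy 1.17.1), with Benjamini-Hochberg adjustment over miRNAs listed in both with at least 10 summed counts, a threshold of 0.05 and a prior count of 0.5. A quasi-likelihood test needs replicated groups. TMM factors came from the same miRNAs. Hairpins with at least 20 counts per library, and pairs, were compared by Fisher's exact test. The exact binomial test was tried at library totals on simulated counts whose only spread was counting error. That trial does not cover the spread between these libraries. DESeq2 1.42.0 size factors, library totals and other minimums were alternatives. Reads carry no molecular identifiers. The members and lists were chosen with earlier results of these data known. Named were all members, the 3 miRNAs nearest in level to each and the 2 highest of each list; others (the pair miR-100-5p with let-7a-5p, Mir674, miR-148a-3p, miR-365-3p, miR-425-5p, miR-16-5p) were chosen after their values were seen.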

Additional observations from a re-analysis of the deposited data

How the results depend on the processing

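No paired analysis was possible because the labels give 1 group, whose replicates are set against no other group. Leaving out 1 replicate at a time left the other library's value, so the summed share of the members ran from 0.349% to 0.559%. Without miR-145a-5p, an alternative chosen after seeing the data, the mean sum was 0.216%, against 0.454% with it. Counting only members listed in both libraries gave 0.450%, a denominator of all listed loci 0.434%, and summing the loci of a name 0.453%. The log2 ratio of miR-143-3p changed sign with library totals, to 0.0401, since a change of scaling moves every ratio by one amount. miR-145a-5p stayed past the test, from 1.22 with DESeq2 size factors to 1.41 with library totals, and no other member tested in the main comparison passed under any scaling. The number of miRNAs that differed between libraries was 58 of 131 tested. It ran from 54 of 100 (at least 50 counts summed) to 76 of 149 (unlisted miRNAs as 0, where miR-199a-5p also passed). The 15 and 31 counts of Mir214 limit its arm share, and n = 2 limits every SD.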
